A study of Sus scrofa with 6 samples.

Results

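The lncRNAs described here are those whose listed position, from start to end, spans less than 200 bp. They were picked from the lncRNA expression table by that span alone, with chromosome Y left out, and number 2146 of 7566. The comparison group is the 5407 lncRNAs of 200 bp or more. The study set white skin against black skin of the same animals, to learn which transcripts differ where melanocytes are lacking. Skin 8 mm deep was taken from 3 female Bama pigs aged 2 years, a Chinese breed with black ends and a white trunk, and poly(A) RNA of each sample was sequenced from strand-specific libraries. From each pig, 1 white sample was cut at the back and 1 black sample at the buttock (n = 3 per skin), so color and body site differ together. Values are FPKM, fragments scaled by transcript length and by mapped reads, and the depth behind each value is unknown. A value of 0 is written below as "listed at 0", since it can be a failed estimate.

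Long noncoding RNAs are transcripts with no evident protein product, by custom those longer than 200 nucleotides. Many are transcribed at low levels and in few cell types, and those lying in or beside a protein-coding gene are often studied for their action on that gene. In skin, lncRNAs have been described in keratinocyte differentiation and in pigment cells. The listed span is the length of the position given in the deposited table and not that of the RNA. In the study's own list of lncRNA loci, each short lncRNA that could be looked up has a wider position that encloses the one deposited, often with the same end and never with the same start. A short lncRNA here is thus a transcript model of which a small piece is listed. All 2146 are transcript models from the study's assembly (identifiers beginning TCONS) and none is marked as known, against 64 of the longer lncRNAs.

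The skins differed in markers of their cells. Of 9 melanocyte markers, 6 were lower in white skin past both thresholds described below, which 6.24% of all mRNAs passed, and the 9 summed to 2.15 to 2.38 FPKM in white and 34.3 to 172 in black samples. TYR was listed at 0 in all white samples, but also in black skin replicate 3, and did not pass. It had 6.93 and 0.490 FPKM in black skin replicates 1 and 2. All 5 fat markers, 4 of 10 fibroblast and matrix markers, 3 of 4 measured endothelial markers and 2 of 6 immune markers (KIT is in both this and the melanocyte list) were lower in white skin. White and black samples summed to 128 to 481 and 785 to 1803 FPKM for fat, 2404 to 5000 and 6346 to 10551 for fibroblast and matrix, 29.1 to 33.6 and 73.2 to 155.5 for endothelial and 7.14 to 18.4 and 21.1 to 60.5 for immune markers. Of 5 mural and smooth muscle markers, 3 were higher and 1 lower, with sums of 3370 to 5225 in white and 488 to 1421 in black samples. Of 2 measured skeletal muscle markers 1, CKM, and of 3 measured gland markers 1, SCD, were higher in white skin. The sums were 29.8 to 66.4 against 1.41 to 5.01 and 4956 to 9983 against 828 to 1340 FPKM. These 2 genes made up nearly all of their sums. CKM was at 28.0 to 66.2 against 1.40 to 4.66 FPKM. SCD was at 4946 to 9980 against 824 to 1320 FPKM. The other measured markers of these lists, ACTA1, AQP5 and ELOVL3, overlapped between the skins. No keratinocyte (5 measured) or hair follicle marker (5 measured) passed the test. The keratinocyte sums were 467 to 1095 in white and 906 to 1310 in black samples, and the hair follicle sums 0.105 to 176 and 228 to 9860. In bulk tissue, fewer cells of a type and less RNA per cell cannot be told apart, and the part of these cells in the results below was not tested.

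The short lncRNAs spanned 10 to 199 bp, with a median of 111 bp, against 1273 bp for the longer ones. They were placed mostly on the minus strand. Of the 2146, 1305 (60.8%) were on the minus strand, against 44.3% of the longer lncRNAs. The share was 69.2% at 10 to 24 bp and 61.0% at 150 to 174 bp, and was 46.5% at 175 to 199 bp, next to 43.5% at 200 to 249 bp. Detection did not follow the span in this way. Between 38.3% and 46.2% of short lncRNAs were above 0.1 FPKM in the average sample in each span class below 200 bp. At the limit itself, the 115 lncRNAs of 190 to 199 bp had a median mean FPKM of 0.193 with 45.1% above 0.1 FPKM, and the 138 of 200 to 209 bp had 0.192 with 46.7%. Above the limit detection reached 66.5% at 500 to 999 bp.

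**Figure D1:**
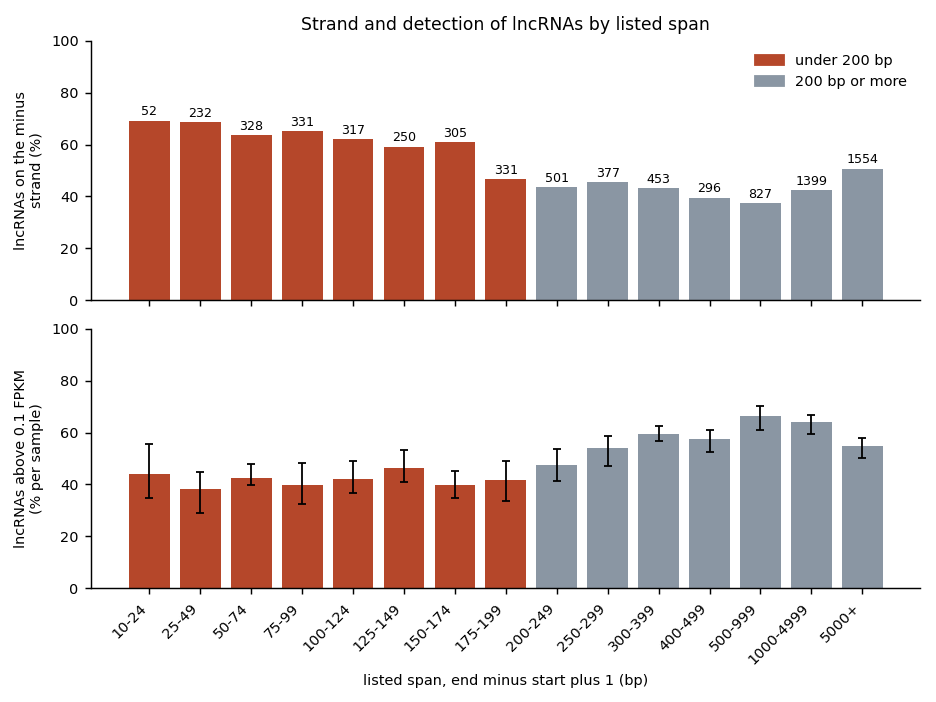
Share of lncRNAs on the minus strand (upper panel, with the number of lncRNAs above each bar) and share above 0.1 FPKM (lower panel, mean over the 6 samples, lines from the lowest to the highest sample) by listed span in bp. The minus-strand share lies between 59.2% and 69.2% up to 174 bp and is 46.5% at 175 to 199 bp, while detection is 38.3% to 46.2% in all classes below 200 bp.

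Short lncRNAs had lower levels than longer ones. The median of the mean FPKM was 0.163 for short and 0.312 for longer lncRNAs. Per sample, 38.2%, 35.7% and 44.5% of the short lncRNAs were above 0.1 FPKM in white skin replicates 1, 2 and 3. In black skin replicates 1, 2 and 3 it was 47.7%, 44.1% and 38.7%. The longer lncRNAs lay between 54.1% and 61.1%, so that no sample of one class reached the other. Over the 6 samples, 41.5% ± 4.62 (SD, n = 6) of short and 58.9% ± 2.88 of longer lncRNAs were above 0.1 FPKM, a difference of -17.4 percentage points with the short ones lower in 6 of 6 samples. The exact permutation test of the 6 within-sample differences, two-sided, gave p = 0.03125, the smallest it allows, and 0.109 after Benjamini-Hochberg adjustment over 7 exact tests, which misses 0.05. Exact p-values given with no adjusted value are unadjusted. The median log2(FPKM + 0.1) gave the same p, at -3.19 ± 0.32 (SD, n = 6) for short and -1.66 ± 0.23 for longer lncRNAs. The classes differed in their share of values at 0. Of the short lncRNAs, 47.9% to 60.6% were listed at 0 in a sample, against 31.3% to 38.1% of the longer ones. Among values above 0, the medians differed by -0.081 on the log2 scale (two-sided exact permutation p = 0.0625).

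Most short lncRNAs were seen in few samples. Since the authors kept lncRNAs above 0.1 FPKM in at least 1 sample, none was below this in all 6. Exactly 1 sample was above 0.1 FPKM for 859 (40.0%), against 21.2% of longer lncRNAs. All 6 samples were above it for 190 (8.85%), against 23.8%. Those seen in 1 sample were spread unevenly, with 76, 69 and 196 in white skin replicates 1 to 3 and 234, 158 and 126 in black skin replicates 1 to 3. White skin replicate 3 and black skin replicate 1 held the most in their skins. LncRNAs on the minus strand were seen more widely, with 10.5% of the 1305 above 0.1 FPKM in all 6 samples against 6.30% of the 841 on the plus strand.

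The number of short lncRNAs seen overlapped between white and black skin. The share above 0.1 FPKM was 39.5% ± 4.55 (SD, n = 3) in white and 43.5% ± 4.52 in black skin, which overlapped (two-sided exact permutation p = 0.3; 3 samples against 3 allow no p below 0.1). The gap to the longer lncRNAs was -19.5 percentage points in white and -15.2 in black skin (two-sided exact permutation p = 0.2). The median FPKM of the short lncRNAs was 0 in all 3 white and in 2 of 3 black samples, so a comparison of that median between the skins could show little. For its gap to the longer lncRNAs the exact permutation test gave p = 0.4. The share of the summed lncRNA FPKM was 12.6%, 9.33% and 6.92% in white skin replicates 1 to 3 and 24.6%, 25.2% and 16.2% in black skin. Every black sample lay above every white sample, at 22.0% ± 5.0 against 9.61% ± 2.84 (SD, n = 3; two-sided exact permutation p = 0.1, adjusted 0.233). The longer lncRNAs summed to 13102 ± 7379 FPKM in white and 6543 ± 482 in black skin, and a single one, TCONS_00077941, held 13479 of the 21406 FPKM of white skin replicate 3. The short ones summed to 1244 ± 301 and 1867 ± 543 (SD, n = 3; two-sided exact permutation p = 0.2). A few lncRNAs carried these sums. Without the 10 of highest mean FPKM in each class, the short share was 15.2% ± 2.31 in white and 18.7% ± 1.44 in black skin (two-sided exact permutation p = 0.2).

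**Figure D2:**
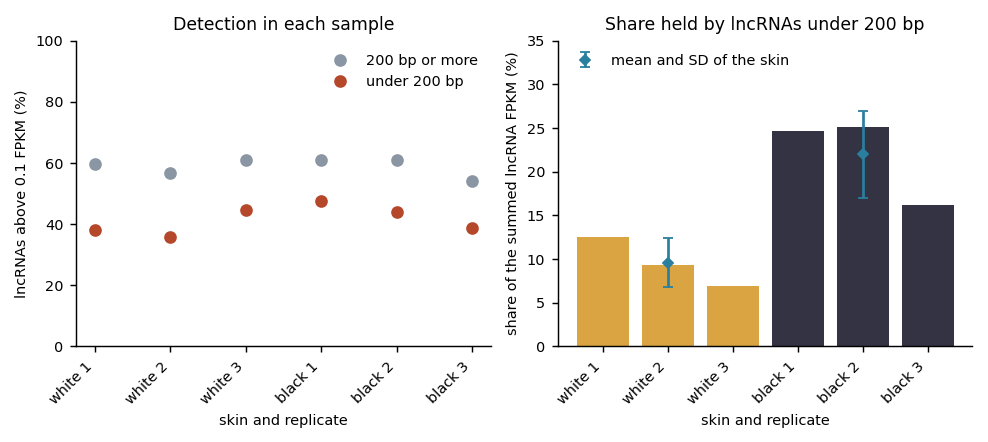
Left, percent of lncRNAs above 0.1 FPKM in each sample, for listed spans under 200 bp and of 200 bp or more. Right, share of the summed lncRNA FPKM held by those under 200 bp (bars, with the mean and SD of each skin), at 6.92% to 12.6% in the white and 16.2% to 25.2% in the black samples.

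The 190 short lncRNAs seen in all 6 samples had a level and spread close to those of their longer counterparts. Their median mean FPKM was 0.788, against 0.974 for 1289 longer ones, and their median SD between replicates of a skin on log2(FPKM + 0.1) was 0.67, against 0.68. Of the 190, 72.1% were on the minus strand. The lncRNAs of this group named here were chosen by their mean FPKM, and some of them after their values were seen. Genes and distances, here and below, refer to the listed position. The rest of the transcript model may lie in or near other genes. TCONS_00082001 (Sscrofa11.1, chromosome 5, 63937569 to 63937633, minus strand, 65 bp) had the highest mean of the 190. It lies within PTMS, which encodes parathymosin, a small acidic nuclear protein. Its FPKM was 121, 93.5 and 65.8 in white skin replicates 1 to 3 and 98.4, 145 and 129 in black skin. The skins overlapped, with a log2 fold change (log2FC) of white against black skin of -0.43 with an SE of 0.60 (Benjamini-Hochberg adjusted p = 0.727 from limma, a linear model fitted over all lncRNAs). It was the only short lncRNA above 20 FPKM in all 6 samples. TCONS_00088322 (chromosome 6, 153692836 to 153692929, plus strand), with no gene within 5 kb of its listed position, had 77.0, 38.7 and 72.0 FPKM in white and 76.4, 2.55 and 159 in black skin. Here black skin held both the lowest and the highest sample.

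Other short lncRNAs seen in all 6 samples lay within protein-coding genes. TCONS_00080681 (chromosome 5, 17846151 to 17846323, minus strand) lies within KRT6A, a type II keratin of the hair follicle and of regenerating epidermis. Its FPKM was 12.9, 5.66 and 11.11 in white and 31.5, 17.5 and 24.8 in black skin. The black samples were all above the white ones, but the difference did not pass the test (log2FC -1.35 with an SE of 0.56, limma adjusted p = 0.415). TCONS_00104860 (chromosome 8, 3837721 to 3837799, minus strand) lies within TBC1D14, a regulator of autophagy. It had 9.55, 0.493 and 8.15 FPKM in white and 12.8, 16.0 and 15.9 in black skin, again with no overlap. Its log2FC was -2.05 with a limma adjusted p of 0.144. The limma adjusted p was 0.00375 with the pig as a block, and 0.679 without a block and without the trend option described below. The steadiest of the 12 with the highest mean was TCONS_00112304 (chromosome 9, 104910560 to 104910730, minus strand), within KMT2E, a chromatin regulator of the histone methyltransferase family. It also lies within the protein-coding gene LOC106504991. Its FPKM ran from 6.70 to 9.71 over the 6 samples.

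Agreement between replicates was lower for short than for longer lncRNAs. Pearson's r across lncRNAs on log2(FPKM + 0.1), for pairs of samples of the same skin, averaged 0.297 (0.190 to 0.465 over 6 pairs) for short and 0.524 (0.449 to 0.629) for longer lncRNAs. Within white skin it was 0.353 and within black skin 0.241 for the short ones. Pairs from different skins averaged 0.224 for short and 0.441 for longer lncRNAs. Of the short lncRNAs above 0.1 FPKM in at least 1 sample of a same-skin pair, 36.9% were above it in both, against 56.6%. Among lncRNAs above 0.1 FPKM in both samples, r averaged 0.546 for short and 0.668 for longer ones. LncRNAs are not independent replicates and the pairs share samples, so no p is given.

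The difference between the classes depended on the level. At a mean of 0.3 to 1 FPKM, 73.7% of short and 76.8% of longer lncRNAs were above 0.1 FPKM in the average sample, and at 1 to 3 FPKM 85.8% and 90.6%. At a mean of 3 FPKM or more the 46 short lncRNAs were at 59.4%, against 93.3% of 230 longer ones. Their median SD between replicates was 3.39 on the log2 scale, against 0.71. The highest values came and went between samples. Of 29 short lncRNAs above 20 FPKM in a sample, 26 (89.7%) were listed at 0 in another, against 17 of 61 longer ones (27.9%). Of 508 above 1 FPKM in a sample, 262 (51.6%) were listed at 0 in another sample of the same skin, against 805 of 2442 (33.0%).

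**Figure D3:**
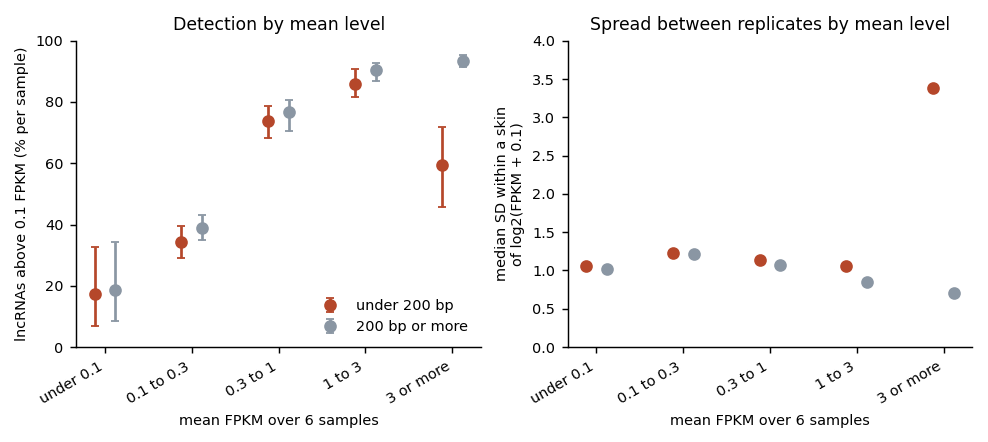
Percent of lncRNAs above 0.1 FPKM (left, mean over the 6 samples with lines from the lowest to the highest sample) and median SD between replicates of a skin on log2(FPKM + 0.1) (right), by mean FPKM, for listed spans under 200 bp and of 200 bp or more (colors as in the left panel). Both classes lie close together below 3 FPKM, and at 3 FPKM or more the short ones are at 59.4% with an SD of 3.39 and the longer ones at 93.3% with 0.71.

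Part of these high values belonged to lncRNAs that share a position. When overlapping positions on either strand were joined, the 2146 short lncRNAs fell into 2071 intervals, of which 2011 held 1 lncRNA and 60 held several, up to 5. Those 60 intervals held 135 lncRNAs (6.29%), and 7 of the 60 held both strands. Of the 46 short lncRNAs with a mean of 3 FPKM or more, 19 were in such intervals. None of the 19 was above 0.1 FPKM in all 6 samples, while 15 of the other 27 were. The 27 were above 0.1 FPKM in 77.2% of their values with a median SD of 1.64 on the log2 scale, and 35 intervals with a summed mean of 3 FPKM or more in 76.2% with an SD of 1.70, both still apart from the 93.3% and 0.71 of the longer lncRNAs. With the FPKM of the 60 intervals summed, 69.4% were above 0.1 FPKM in the average sample, against 44.0% of their 135 lncRNAs taken singly. Between replicates of a skin, r averaged 0.546 over the summed intervals and 0.160 over their lncRNAs, and 0.354 over all short lncRNAs with positions summed. Positions of the longer lncRNAs were not summed. Summing was chosen after the data were seen.

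At 4 of the 5 intervals with the highest sums, different lncRNAs held the FPKM in different samples. On chromosome 3, 6159236 to 6159408, 5 lncRNAs are listed within the same 173 bp, 3 on the plus and 2 on the minus strand. TCONS_00065940 had 147.6 and 138.6 FPKM, and TCONS_00061796 had 76.2 and 80.7, in white skin replicates 1 and 2, and both were listed at 0 in the other 4 samples. TCONS_00061799 had 176 FPKM in white skin replicate 3 and 113 and 149 in black skin replicates 1 and 3, and was listed at 0 elsewhere. TCONS_00065941 and TCONS_00061800 had 176 and 152 FPKM in black skin replicate 2 and at most 0.328 in any other sample. Every sample thus had high FPKM for at least 1 lncRNA listed at this position. Their sum was 224, 219 and 176 in white and 113, 328 and 149 in black skin. These FPKM belong to transcript models, so they do not show reads at the listed 173 bp themselves. Summed, the interval had a log2FC of 0.22 with an SE of 0.68 (limma adjusted p = 0.890), although TCONS_00065940 and TCONS_00061796 taken singly passed both thresholds as higher in white skin.

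On chromosome 5, 94861259 to 94861436, within the uncharacterised lncRNA gene LOC106507545, 5 lncRNAs summed to 0, 96.8 and 361 FPKM in white and 282, 311 and 79.8 in black skin. TCONS_00079759, the short lncRNA with the highest mean of all, made up 252 FPKM of this in white skin replicate 3 and 222 and 310 in black skin replicates 1 and 2, and was listed at 0 in the other 3 samples. For this lncRNA both skins held samples at 0 and samples above 200 FPKM. On chromosome 10, 28770501 to 28770684, 4 lncRNAs on the plus strand were all listed at 0 in the 3 white samples. Their sum was 188, 369 and 30.3 FPKM in black skin. A different lncRNA led in each black sample, with TCONS_00010694 at 188 FPKM in replicate 1, TCONS_00010691 at 316 in replicate 2 and TCONS_00010693 at 30.3 in replicate 3. Summed, this interval passed the test as higher in black skin (limma adjusted p = 1.89e-21), with no fold given as the white samples were at 0. Its lncRNAs passed the authors' filter of 0.1 FPKM only through black samples. The interval was also picked by its sum, so this p-value is no independent support for a difference. The interval on chromosome 5 did not pass (limma adjusted p = 0.0584).

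The other 2 intervals showed no such presence across a skin. On chromosome 4, 120764259 to 120764439, 3 lncRNAs summed to 0, 0 and 152 FPKM in white and 230, 84.2 and 0 in black skin. On chromosome 1, 157358900 to 157359085, 3 lncRNAs were listed at 0 in the white samples and in black skin replicate 1. They summed to 307 and 124 FPKM in black skin replicates 2 and 3, and TCONS_00007777 led in both, at 297 and 72.5 FPKM. Summed, the interval on chromosome 1 passed as higher in black skin (limma adjusted p = 5.98e-06), although black skin replicate 1 was at 0. Its lncRNAs, too, passed the filter only through black samples, and it was picked by its sum. That on chromosome 4 did not pass (limma adjusted p = 0.301). The summed intervals, also that on chromosome 10, were fitted only with the trend option of limma described below. How far their p-values depend on it was not tested. Taken singly and without that option, TCONS_00007777 had a limma adjusted p of 0.156, and TCONS_00010693 of the interval on chromosome 10 one of 0.120. Of these 5 intervals, only that on chromosome 5 lies within 5 kb of a gene of the RefSeq annotation of Sscrofa11.1. Apart from shared positions, 215 short lncRNAs (10.02%) overlapped a longer lncRNA of the table. The exact start, end and strand of another lncRNA of the same class was listed for 46 short (2.14%) and 771 longer lncRNAs (14.3%).

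**Figure D4:**
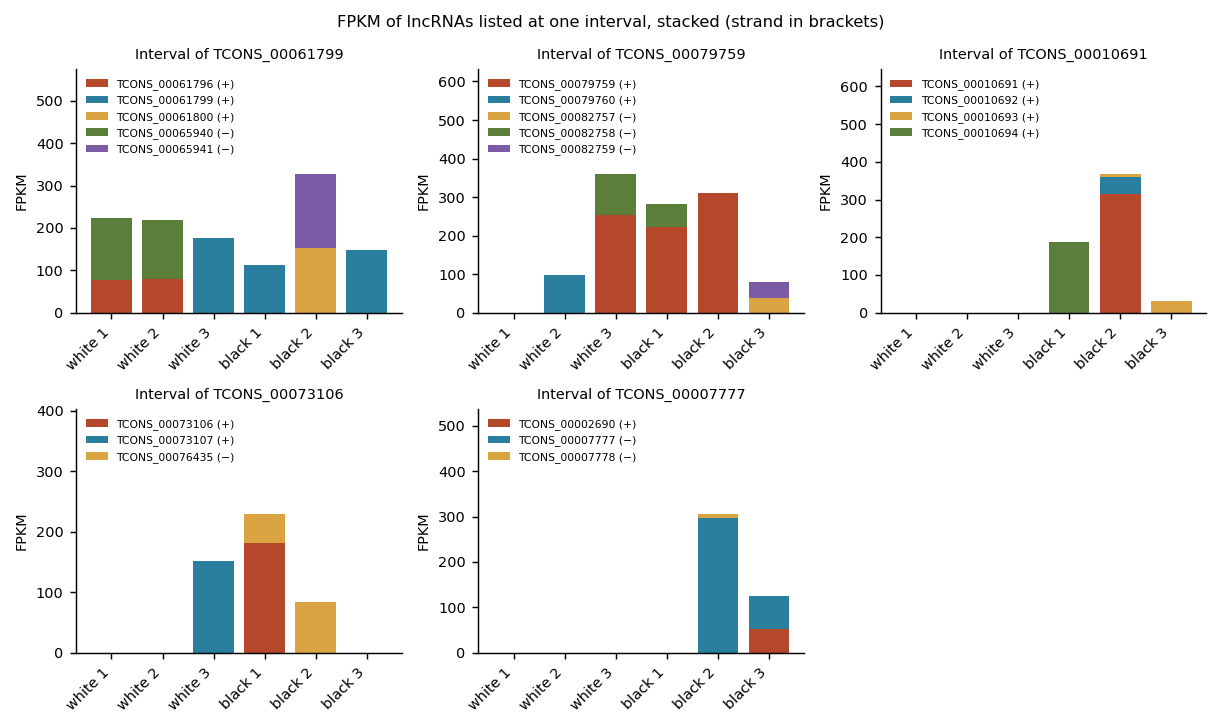
FPKM in each sample of the lncRNAs listed at the 5 intervals with the highest summed FPKM, stacked by lncRNA, with the strand in brackets and each panel named after its lncRNA of highest mean. The interval of TCONS_00061799 is at 113 to 328 FPKM in the 6 samples through different lncRNAs, and that of TCONS_00010691 is at 0 in the white and at 30.3 to 369 FPKM in the black samples.

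White and black skin were compared for all 7566 lncRNAs in 1 limma fit on log2(FPKM + 0.1), and calls needed a Benjamini-Hochberg adjusted p under 0.05 with a log2FC beyond 1 in either direction. The log2FC is white minus black skin on this pseudocount scale, so the change of low values is understated. Of the 2146 short lncRNAs, 123 (5.73%) had an unadjusted p under 0.05 and a log2FC beyond 1, next to 7.88% of all lncRNAs. After adjustment 18 (0.839%) were called, 13 higher in white and 5 higher in black skin. Over all lncRNAs 1.33% were called, 1.08% as higher in white and 0.251% as higher in black skin, and of the longer ones 82 (1.52%). The share of short lncRNAs called was thus below the background. With only lncRNAs above 0.1 FPKM in at least 3 samples, 0.360% of short and 0.787% of longer ones were called. Before adjustment 14.1% of these short and 13.4% of these longer ones passed. Of the 18, 12 had no overlap between the skins, 13 had 1 direction of change within all 3 pigs, 17 were listed at 0 in at least 1 sample and 4 in at least 4 samples. Of the 82 longer ones called, 74 had no overlap and 77 had 1 direction of change. Of these 82, 54 were listed at 0 in at least 1 sample and 4 in at least 4 samples. The same values made the calls, so these counts are no further support for them. Without a block, the calls rest on the trend option of limma, which takes part of each spread from lncRNAs of like mean level. Without it limma called 0 short lncRNAs (0.159% over all lncRNAs), with 135 at an unadjusted p below 0.05, and all 18 had an unadjusted p below 0.05 with adjusted p from 0.0550 to 0.494. Leaving out 1 sample left no call for white skin replicate 1, white skin replicate 2, black skin replicate 1 or black skin replicate 2, 2 calls for white skin replicate 3 and 1 for black skin replicate 3. With the pig as a block, limma called 53 short lncRNAs, 28 higher in white and 25 higher in black skin (3.21% over all lncRNAs), among them all 18. With the block and without the trend, added after seeing the data, limma called 12, 8 higher in white and 4 higher in black skin (0.687% over all lncRNAs).

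**Figure D5:**
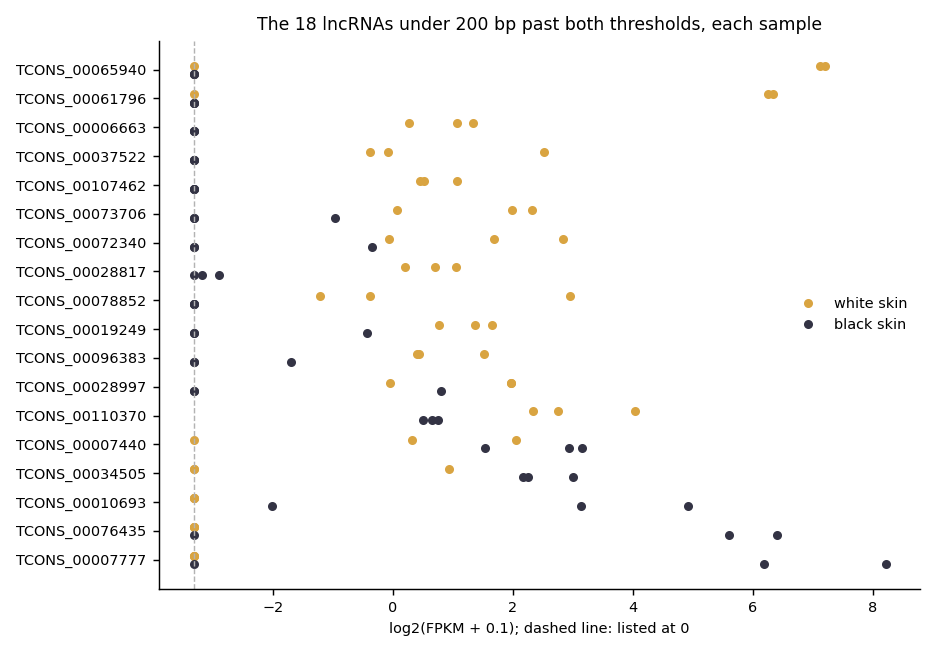
log2(FPKM + 0.1) of the 18 short lncRNAs past both thresholds in each white and black skin sample, ordered by fold change, with the dashed line at values listed at 0. All but TCONS_00110370 have a sample at 0, and the lncRNAs at either end of the order are at 0 in at least 1 sample of the skin in which they are higher.

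Among the lncRNAs higher in white skin, TCONS_00110370 was the only one of the 18 above 0 in all samples. It spans 100 bp (chromosome 9, 8389363 to 8389462, minus strand) within UCP3, a mitochondrial uncoupling protein known from muscle and brown fat. Its FPKM was 6.67, 16.3 and 4.94 in white and 1.31, 1.47 and 1.59 in black skin (log2FC 2.41 with an SE of 0.60, limma adjusted p = 0.0191). Every white sample was above every black sample. Without the trend its limma adjusted p was 0.397, and with the block and no trend 0.343. The UCP3 mRNA itself had 19.7, 37.6 and 17.0 FPKM in white and 6.30, 4.24 and 11.4 in black skin (log2FC 1.71, limma adjusted p = 0.0495 and 0.0584 with the pig as a block). TCONS_00028997 (chromosome 13, 136778979 to 136779065, minus strand) lies within MYLK, the myosin light chain kinase of smooth muscle. It had 3.83, 0.862 and 3.79 FPKM in white and 0, 1.63 and 0 in black skin, so the skins overlapped (log2FC 3.24 with an SE of 0.87, limma adjusted p = 0.0384). Without the trend its limma adjusted p was 0.336, and with the block and no trend 0.218. The MYLK mRNA had 628, 963 and 648 FPKM in white and 42.5, 37.3 and 40.0 in black skin (log2FC 4.18, limma adjusted p = 0.000880). Of the 5 mural and smooth muscle markers, 3 passed in this direction and 1, RGS5, in the other. The gene table gives no strand or exons, so whether these lncRNAs are in an exon or an intron of their gene, or antisense to it, was not determined.

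TCONS_00072340 (chromosome 4, 97337799 to 97337869, plus strand) lies within THEM5, a mitochondrial acyl-CoA thioesterase. It had 3.10, 7.02 and 0.855 FPKM in white and 0, 0.688 and 0 in black skin, without overlap (log2FC 3.81 with an SE of 0.86, limma adjusted p = 0.00655). The THEM5 mRNA overlapped between the skins (limma adjusted p = 0.173). TCONS_00037522 (chromosome 14, 140637474 to 140637514, minus strand, 41 bp) lies within PWWP2B, a chromatin protein, and within LOC110256841, a protein-coding gene with no matched mRNA. It had 5.64, 0.663 and 0.848 FPKM in white skin and was listed at 0 in black skin (limma adjusted p = 0.0128), while the PWWP2B mRNA overlapped between the skins (log2FC 0.18, limma adjusted p = 0.657). TCONS_00006663 (chromosome 1, 103768587 to 103768642, minus strand) lies 215 bp from MBD2, a protein that binds methylated DNA. It had 2.43, 2.01 and 1.10 FPKM in white skin and was listed at 0 in black skin (limma adjusted p = 0.00439). MBD2 mRNA was at 17.0 to 18.2 FPKM in white and 19.4 to 24.2 in black skin (log2FC -0.27, limma adjusted p = 0.395). TCONS_00019249 (chromosome 12, 7618685 to 7618806, minus strand) lies 1454 bp from SDK2, a cell adhesion protein of the immunoglobulin superfamily. It had 1.61, 3.03 and 2.47 FPKM in white and 0.644, 0 and 0 in black skin (log2FC 3.62 with an SE of 0.84, limma adjusted p = 0.00903).

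Of the other 7 called as higher in white skin, 5 had all white samples above all black samples, with low values throughout. TCONS_00107462 (chromosome 9) had 1.33, 2.00 and 1.26 FPKM in white skin and was listed at 0 in black skin. TCONS_00028817 (chromosome 13) had 1.04, 1.98 and 1.52 FPKM in white skin and at most 0.0336 in black skin. TCONS_00073706 (chromosome 4) had 0.949, 4.88 and 3.86 FPKM in white and 0, 0.409 and 0 in black skin. These 3, and TCONS_00096383 (chromosome 7), had no gene within 5 kb of their listed positions. TCONS_00078852 (chromosome 5), within the uncharacterised lncRNA gene LOC106507269, had 7.63 FPKM in white skin replicate 3 and 0.332 and 0.664 in replicates 1 and 2, and was listed at 0 in black skin. The remaining pair, TCONS_00065940 and TCONS_00061796, are those of the shared position on chromosome 3.

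Of the 5 called as higher in black skin, 3 were at shared positions. TCONS_00007777 (chromosome 1) had 297 and 72.5 FPKM in black skin replicates 2 and 3 and TCONS_00076435 (chromosome 4) had 48.6 and 84.2 in replicates 1 and 2. Both were listed at 0 in the remaining black sample and in white skin, so the skins met at 0. TCONS_00010693 (chromosome 10) had 0.146, 8.73 and 30.3 FPKM in black skin and was listed at 0 in white skin. The other 2 lay alone at their position. TCONS_00034505 (chromosome 14, 29788686 to 29788823, minus strand) lies within PITPNM2, a phosphatidylinositol transfer protein. It had 1.82, 0 and 0 FPKM in white and 4.64, 7.92 and 4.37 in black skin, without overlap (log2FC -4.37 with an SE of 0.80, limma adjusted p = 0.000392). The PITPNM2 mRNA overlapped between the skins (log2FC -0.86, limma adjusted p = 0.166). TCONS_00007440 (chromosome 1, 130988902 to 130988970, minus strand) lies 767 bp from INAFM2. It had 4.06, 1.15 and 0 FPKM in white and 7.51, 8.81 and 2.81 in black skin, which overlapped (log2FC -2.86 with an SE of 0.78, limma adjusted p = 0.0415).

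Without regard to the fit, 183 short lncRNAs (8.53%) had no overlap between their 3 white and 3 black values, 86 with white and 97 with black skin higher. This held for 12.2% of all lncRNAs and 13.6% of the longer ones. A lncRNA listed at 0 in both skins cannot be without overlap, and more of the short ones were listed at 0. Among lncRNAs above 0.1 FPKM in all 6 samples, 33 of 190 short and 241 of 1289 longer ones had no overlap. Above 0.1 FPKM in all 3 white and in no black sample were 28 short lncRNAs (1.305%, against 2.02% of longer ones). Above it in all 3 black and in no white sample were 31 (1.44%, against 1.07%). Their median mean FPKM was 0.297 for the 28 and 0.221 for the 31, against 0.163 over all short lncRNAs, and 5 and 1 of them were called. The median log2 fold change was -0.33 over all short and -0.09 over all longer lncRNAs, but without black skin replicate 1 or 2 it was 0 over the short ones, and without black skin replicate 3 -0.08 in both classes.

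By listed position, which covers only a piece of the transcript model, short lncRNAs lay inside protein-coding genes about as often as longer ones. On assembled chromosomes, the midpoint was within a RefSeq protein-coding gene for 694 of 2100 short lncRNAs (33.0%) and for 34.0% of longer ones. It was within a RefSeq lncRNA gene for 20.5% and 31.3%. A gene of any kind lay within 5 kb of 67.8% of short and 81.0% of longer lncRNAs. No short lncRNA overlapped a miRNA or tRNA gene, against 25 (0.473%) and 22 (0.416%) longer ones. A longer position has more room for an overlap, so these counts cannot compare the classes. The short lncRNAs lay within 667 protein-coding genes, and 427 of these (64.02%) had an mRNA that could be matched by symbol. Those mRNAs had a median FPKM of 5.64, against 6.43 over all 12236 mRNAs with a symbol. Of the 427, 29 (6.79%) were called between the skins, 10 higher in white and 19 higher in black skin, next to 6.55% of all mRNAs with a symbol.

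Few genes held more than 2 short lncRNAs. OSR1, a transcription factor of limb and urogenital development, held 4. They lie in pairs at shared positions, TCONS_00065402 with TCONS_00065403 and TCONS_00065404 with TCONS_00065405. Among those holding 3 each were BGN, the matrix proteoglycan biglycan, CDKN2B, an inhibitor of cell-cycle kinases, BCOR, a transcriptional corepressor, DLG2 and TRIM66. The 3 in BGN were listed at 0 in at least 2 samples each, and TCONS_00120254 and TCONS_00120255 among them share a position. Of the cell type markers, 2 held short lncRNAs. TCONS_00103201, within PDGFRA, the receptor that marks fibroblasts, had 0.121, 0 and 0 FPKM in white and 0.506, 0.1997 and 0.647 in black skin. The PDGFRA mRNA was at 1.05 to 2.07 FPKM in white and 3.39 to 16.1 in black skin, and neither passed the test (adjusted p = 0.691 and 0.0585 from limma). With the pig as a block the mRNA passed as higher in black skin (limma adjusted p = 0.0252). The pair within CD3E, a chain of the T cell receptor complex, TCONS_00107833 and TCONS_00111213, did not exceed 0.834 FPKM in any sample.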

How the data were processed

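Skin of 3 pigs was sequenced, 1 white and 1 black sample each. The authors aligned reads to Sscrofa11.1 (TopHat per the methods, HISAT2 2.0.4 per the submitters' processing notes), assembled lncRNAs and calculated the deposited FPKM with StringTie 1.3.3, keeping lncRNAs above 0.1 and mRNAs above 0.5 FPKM in at least 1 sample. FPKM hold no counts, so depth and counting error are unknown. Which part of a transcript the deposited start and end cover is not given in the sources used here.

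Spans were computed as end minus start plus 1, and 13 lncRNAs on chromosome Y, 2 of them below 200 bp, were placed in neither class but stayed in the fit. No other filter was applied. The skins were compared in limma 3.58.1 (R 4.3.3, trend option) on log2(FPKM + 0.1), and on log2(FPKM + 0.5) for mRNAs, with Benjamini-Hochberg adjustment over all 7566 lncRNAs or 14900 mRNAs. The pig was not in the model, as in the study. Samples of the same number come from the same pig, and their deviations from the skin means correlated across all lncRNAs (r = 0.101, 0.148 and 0.132 for pigs 1, 2 and 3), so the model was also fitted with pigs as blocks. Summary values were compared with two-sided exact permutation tests, 7 of them adjusted together and the others unadjusted (Python 3.11.15, NumPy 2.4.6, SciPy 1.17.1, pandas 2.3.3). Symbols were matched for 82.1% of mRNAs, and positions were set against RefSeq genes of Sscrofa11.1.

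Named are the 10 short lncRNAs of highest mean FPKM, those called (at most 10 per direction, or where fewer than 5 the 5 smallest p), those within 5 kb of a fixed marker gene and the highest of each sample. Called lncRNAs outside this rule (TCONS_00110370, TCONS_00028997 and TCONS_00078852), lncRNAs seen in all 6 samples, the genes holding most short lncRNAs and shared intervals were chosen after their values were seen. Members, lists and tests were chosen with earlier results of these data known. Alternatives were other pseudocounts, scalings, filters, detection and span limits, no trend, the block, p before adjustment and leaving out each sample. No sequence is printed, as no genome was used here.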

Additional observations from a re-analysis of the deposited data

How the results depend on the processing

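The count of called short lncRNAs, 18 in the fit reported, depended on most settings. It was 2 with a pseudocount of 0.01, 11 with 0.5 and 0 with 1 (52 at an unadjusted p below 0.05 from limma), 0 without the trend option (135 unadjusted), 3 with only lncRNAs above 0.1 FPKM in at least 3 samples, and 123 with p before adjustment. With span limits of 150 and 300 bp it was 8 and 28. Leaving out each sample gave 0 to 2, with 74 to 113 at an unadjusted p. The 82 longer lncRNAs became 28 and 19 with pseudocounts of 0.01 and 1, 12 without the trend, 27 with the filter on 3 samples, 472 before adjustment and 0 to 3 without a sample. With the pig as a block the counts were 53 short and 189 longer lncRNAs, and with the block but no trend, added after seeing the data, 12 and 39. With the block and the trend, TCONS_00079759, at 0 to 252 FPKM in white and 0 to 310 in black skin, had an adjusted p of 8.83e-11 from limma, against 0.652 with the block and no trend, so p-values of lncRNAs with high values in few samples are not firm. With the pig as a block, the gap between short and longer lncRNAs was compared between white and black skin within each pig. For the gap in the share above 0.1 FPKM, white minus black skin was -4.34 percentage points, with 1 sign in all 3 pigs. The exact permutation test by sign flips over 3 pigs gave p = 0.25 for this skin difference, the smallest it allows. For the skin difference of the gap in the median level, the exact permutation test by sign flips gave p = 0.5. Quantile and upper-quartile scaling called 15 and 17 short lncRNAs.

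The difference in the share above 0.1 FPKM was -18.2 to -16.5 percentage points without each sample, and that in the median level -1.63 to -1.46 on the log2 scale, each with an exact p of 0.0625, the smallest that 5 samples allow. With only values above 0 the median differed by -0.081 (exact permutation test, p = 0.0625). The difference in mean r between short and longer lncRNAs, -0.23, was -0.54 on FPKM without a log, -0.28 with a pseudocount of 1, -0.12 among lncRNAs above 0.1 FPKM in both samples and -0.17 with overlapping positions summed for the short lncRNAs alone. No called result changed direction under the alternatives run. Beyond what the settings themselves change, the cause of these shifts was not tested. The unknown depth limits every value near 0.1 FPKM.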
